A study of Mus musculus with 9 samples.

Results

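Colon RNA from wild-type mice was sequenced in 9 libraries, and the libraries were divided by the level of Hoxd13, the homeobox gene at the 5′ end of the HoxD cluster. The 5 libraries in which Hoxd13 reached a CPM (counts scaled to the library total) of 10 or more are called Hoxd13-high (CT 1, CT 2, IM 1, IM-HYA 1 and IM-HYA 3), and the 4 below that level are called Hoxd13-low (CT 3, IM 2, IM 3 and IM-HYA 2). CT mice ate a normal diet and wore no cast, IM mice ate the normal diet and wore a hindlimb cast for 10 days, and IM-HYA mice wore the cast on a diet containing HYA (an abbreviation given without its meaning). All 3 groups lie on both sides of the division: 2 CT, 1 IM and 2 IM-HYA libraries were Hoxd13-high, and 1 CT, 2 IM and 1 IM-HYA library were Hoxd13-low. The labels name the tissue as colon, do not say which stretch of it was taken, and do not say that each library is its own animal, so the p-values describe library-to-library spread that could be technical. No library came from mice on the HYA diet without a cast.

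Hox genes encode homeodomain transcription factors that lie in 4 clusters, and their order along a cluster follows their order of use along the body axis. In the mouse gut the paralog groups with the highest numbers mark the hindmost part, and Hoxd13 and Hoxb13 are known as genes of the distal colon and rectum. The same genes are also known to be expressed in the prostate. The proximal colon is known for mucus-rich folds and for fermentation of fibre to short-chain fatty acids, and the distal colon for absorption of sodium and water under aldosterone.

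The level that chose the sides, Hoxd13 CPM of the library total, was 117, 15.8, 124, 116 and 125 in CT 1, CT 2, IM 1, IM-HYA 1 and IM-HYA 3, and 4.12, 0.605, 0 and 4.26 in CT 3, IM 2, IM 3 and IM-HYA 2. Just inside the threshold lay CT 2 at 15.8, and just outside it lay IM-HYA 2 at 4.26. Pancreatic enzyme genes took 32.8% of the counts of CT 2, and without those genes its Hoxd13 level came to 23.6 CPM. All values below follow the same library order, first the 5 Hoxd13-high and then the 4 Hoxd13-low libraries, and levels are CPM after scaling by the trimmed mean of M values (TMM). Since the sides were made from a level measured in these libraries, an adjusted p below says that a gene moved with Hoxd13 over the 9 libraries, and it compares no dissected regions.

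Of the marker genes named for the division, Hoxb13 followed it and Hoxb6 did not. Hoxb13 measured 410, 336, 323, 414 and 441 CPM on the Hoxd13-high side and 211, 39.7, 0.141 and 163 CPM on the low side. The low side was graded: CT 3 and IM-HYA 2 held about the same intermediate Hoxb13 level, IM 2 less, and IM 3 next to none. Hoxb6, a gene used further forward along the axis, measured 2.52, 0.548, 2.36, 1.49 and 1.18 CPM on the high side and 0.917, 23.6, 92.4 and 3.82 CPM on the low side. CT 3 lay inside the range of the Hoxd13-high libraries for Hoxb6, so the libraries are called here by their Hoxd13 level and not by a place in the colon.

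Among the 12 Hox genes of paralog groups 10 to 13, 8 passed the filter on low counts, and 4 of these (Hoxb13, Hoxd13, Hoxd12 and Hoxd10) were higher in every Hoxd13-high library than in every Hoxd13-low one. Hoxd13 itself chose the sides, so its separation is no result. Of all genes tested outside the Hox clusters, 5.02% lie wholly higher. Hoxd12 measured 11.4, 2.53, 9.38, 9.65 and 11.2 CPM against 1.09, 0.0934, 0.328 and 0.259 CPM. Hoxd10 measured 23.8, 5.61, 15.6, 15.8 and 13.5 CPM against 0.974, 0.809, 4.5 and 0.936 CPM. CT 2 was the lowest of the high side for both. Hoxa10 and Hoxa11 overlapped between the sides, with Hoxa10 at 22.8 to 40.2 CPM in the Hoxd13-high libraries and at 48.9, 42.9, 5.25 and 40.7 CPM in the low ones.

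Of the 27 genes of groups 1 to 9, 21 passed the filter. Hoxb5, Hoxc4 and Hoxa5 were lower in every Hoxd13-high library, and the other 18 overlapped. Of all genes tested outside the Hox clusters, 4.86% lie wholly lower. Hoxb5 measured 4.78, 2.94, 3.99, 6.13 and 3.16 CPM against 6.59, 23.4, 64.0 and 8.36 CPM. For Hoxb8, Hoxb7, Hoxb6, Hoxb4 and Hoxb3, IM 3 and then IM 2 were the highest of all 9 libraries, while CT 3 and IM-HYA 2 stood within or close to the Hoxd13-high range. Hox genes share the rule's measure and are given with no test.

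**Figure D1:**
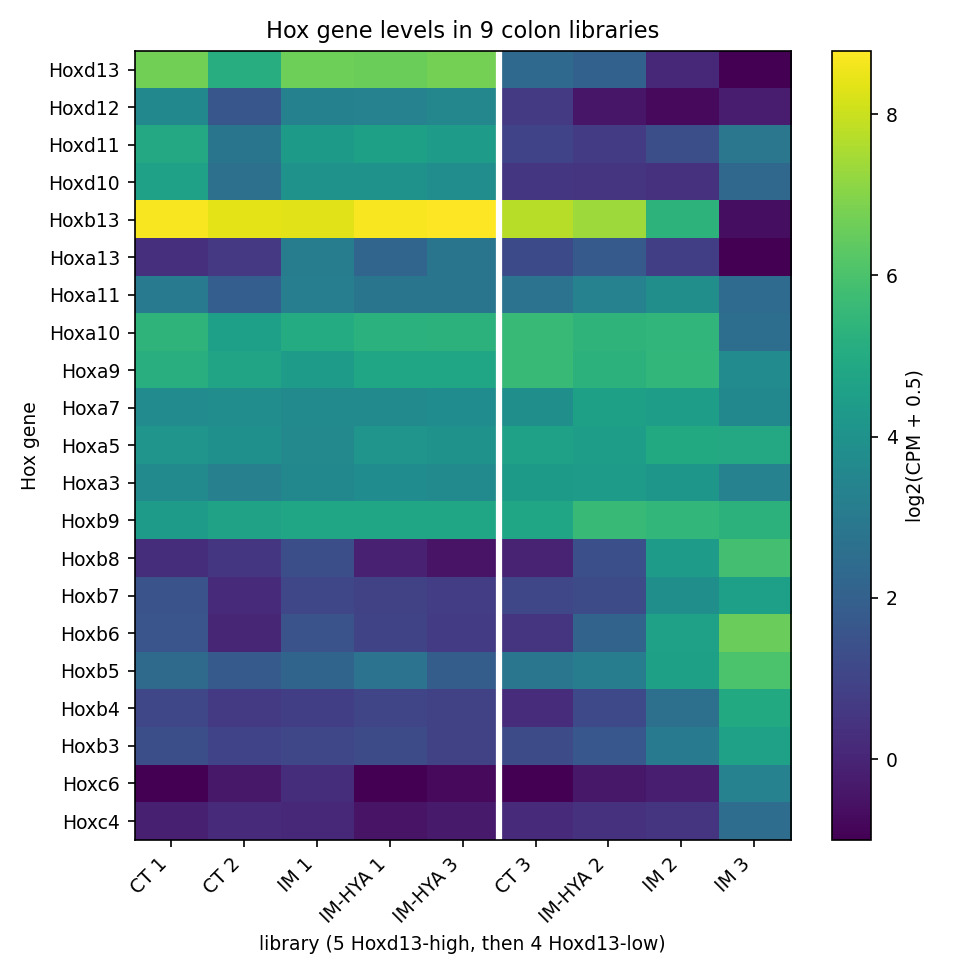
Levels of 21 Hox genes as log2(CPM + 0.5), by gene (rows) and library (columns, the 5 Hoxd13-high libraries left of the white line, the 4 Hoxd13-low ones right of it). Hoxd10 to Hoxd13 and Hoxb13 are brighter on the left, and Hoxb3 to Hoxb8 are brightest in IM 3 (Hoxb6 at 92.4 CPM).

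Total counts ran from 19638401 to 42917198 per library. Rn18s-rs5, a pseudogene of 18S ribosomal RNA, took 5.42, 8.76, 2.88, 4.19 and 3.66% of counts on the Hoxd13-high side and 23.2, 11.3, 16.4 and 4.60% on the low side. Its share is thus higher in 3 of the 4 Hoxd13-low libraries than in any Hoxd13-high one. Adipocyte, T cell and B cell marker lists each had their highest mean in IM 3, with log2 CPM means of 6.16, 3.29 and 4.96. General epithelial markers and smooth muscle markers overlapped between the sides: Epcam, an epithelial adhesion gene, measured 1510 to 2124 CPM on the high side and 874 to 2054 CPM on the low side.

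Genes of the prostate and seminal vesicle were found in some libraries, most of them Hoxd13-high. Pbsn, the prostate secretory gene probasin, measured 463, 0, 26.1, 29.8 and 1082 CPM in the Hoxd13-high libraries and 1.20, 0, 0 and 0 CPM in the low ones. The seminal vesicle genes Svs2, Svs4 and Svs5 reached 1865, 2519 and 3736 CPM in IM 1 and at most 0.338 CPM in any other library.

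Over the whole urogenital list, 5 of 12 genes were tested and 0 passed. Its summed level was 1126, 2906, 5165, 415 and 1509 CPM on the high side and 757, 317, 47.7 and 319 CPM on the low side. Its mean log2 CPM was 4.54, 1.38, 3.27, 3.42 and 5.31 on the high side and 1.6, 0.714, 0.159 and 0.465 on the low side. Hoxd13 measured 104, 99.2, 95.8 and 105 CPM in CT 1, IM 1, IM-HYA 1 and IM-HYA 3, and 33.7 CPM in CT 2. CT 2 had no Pbsn count but a summed level of 2906 CPM over the list. Whether Hoxd13 and these transcripts go together was not tested. The part of the 18S transcripts in the gene results below was measured only by the alternatives given with the counts. That of the prostate transcripts was not tested. Leaving out CT 1 and IM-HYA 3 takes out whole libraries and keeps IM 1 and IM-HYA 1, which also held Pbsn.

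**Figure D2:**
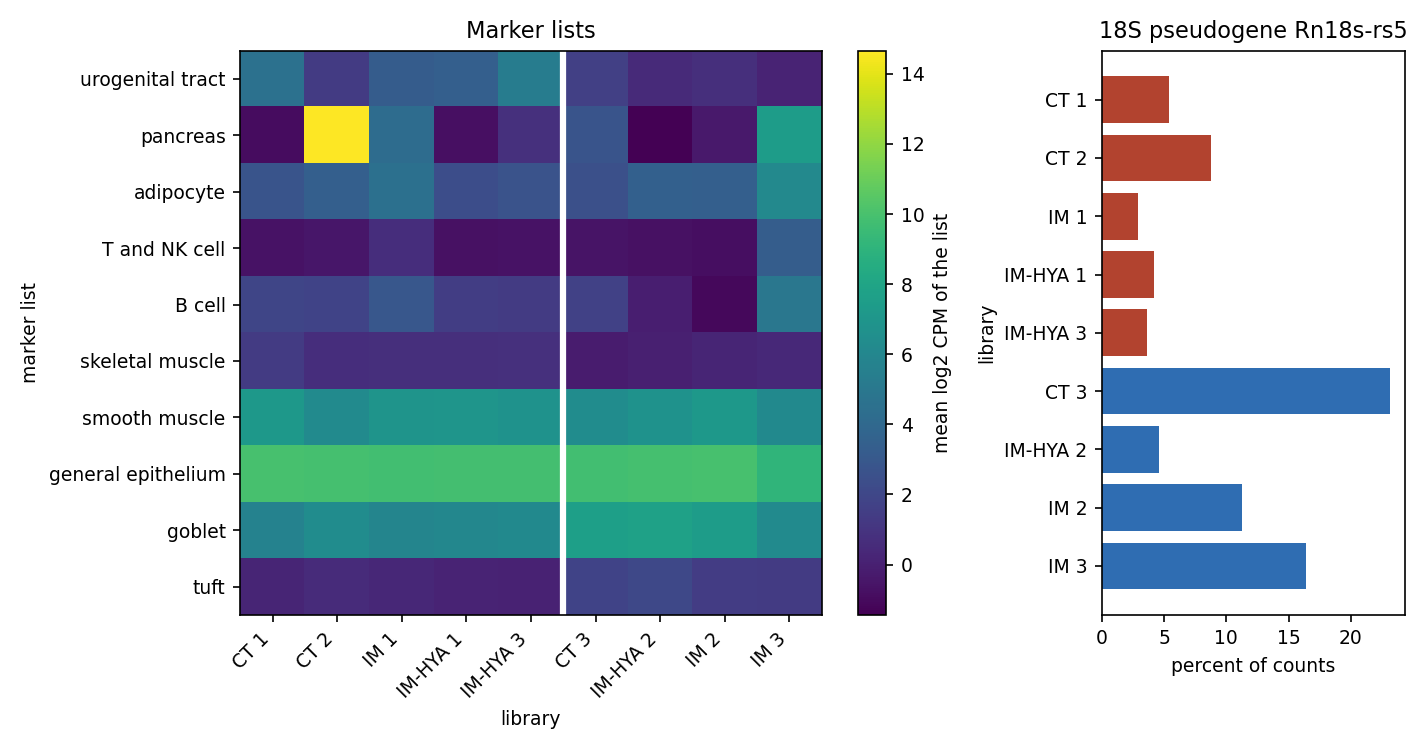
Left, the mean log2 CPM of 10 marker lists by library, with the Hoxd13-high libraries left of the white line. Right, the share of counts on the 18S pseudogene Rn18s-rs5 in each library, in percent, with Hoxd13-high libraries in red and Hoxd13-low ones in blue. Pancreas genes stand out in CT 2 (14.66 on the log2 scale), lymphocyte and adipocyte genes in IM 3, and the 18S share in CT 3 (23.2%).

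Outside the Hox clusters, 17795 genes were tested with edgeR's quasi-likelihood test (Benjamini-Hochberg adjustment over all genes tested, threshold 0.05). In the comparison of the sides 571 genes (3.21%) were called, 214 (1.2%) higher and 357 (2.01%) lower in the Hoxd13-high libraries. At an unadjusted p under 0.05 the counts were 2062 and 2638. Of the called genes, 57 were at least 4-fold higher and 121 at least 4-fold lower, and 529 did not overlap between the sides. Of these 203 were higher and 326 lower, where 5.02% of all genes tested lie wholly higher, 4.86% wholly lower and 9.88% either way. The median log2 fold change of all genes tested was −0.00619.

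Within the low side, CT 3 and IM-HYA 2 lay nearer to the high side than IM 2 and IM 3 did. Each library was placed between the mean of the other low libraries (0) and that of the other high libraries (1). For CT 3 and IM-HYA 2 the median place over the called genes was 0.223 and 0.227. It was −0.145 for IM 2 and −0.384 for IM 3. The 5 high libraries lay between 0.871 (CT 2) and 1.07 (IM 1). The called genes were chosen for a difference between these sides, so the distance between the sides is built in.

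The number of calls depended on single libraries. The count was 237 without CT 1, 184 without IM 1, 155 without IM 2, 157 without IM-HYA 1, 154 without IM-HYA 3 and 1946 without IM-HYA 2. With the 18S share as a further term 47 genes were called, 46 of them among the 571. Without CT 1 and IM-HYA 3, the libraries highest in Pbsn, 1 gene was called, B3gnt6, in a fit with fewer high libraries. With the side held in the model, the treatment contrasts called 1 gene for IM against CT (0.00562% of genes), 0 for IM-HYA against IM and 1 for IM-HYA against CT, and the counts with no side term were the same. The called gene was in both cases the long noncoding RNA gene G530011O06Rik, named after its value was seen, which stood at 18.8, 21.2 and 20.1 CPM in CT 1, CT 2 and CT 3 and at most 1.01 CPM elsewhere. For IM-HYA against IM, where edgeR called 0 genes, DESeq2 called 22.

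**Figure D3:**
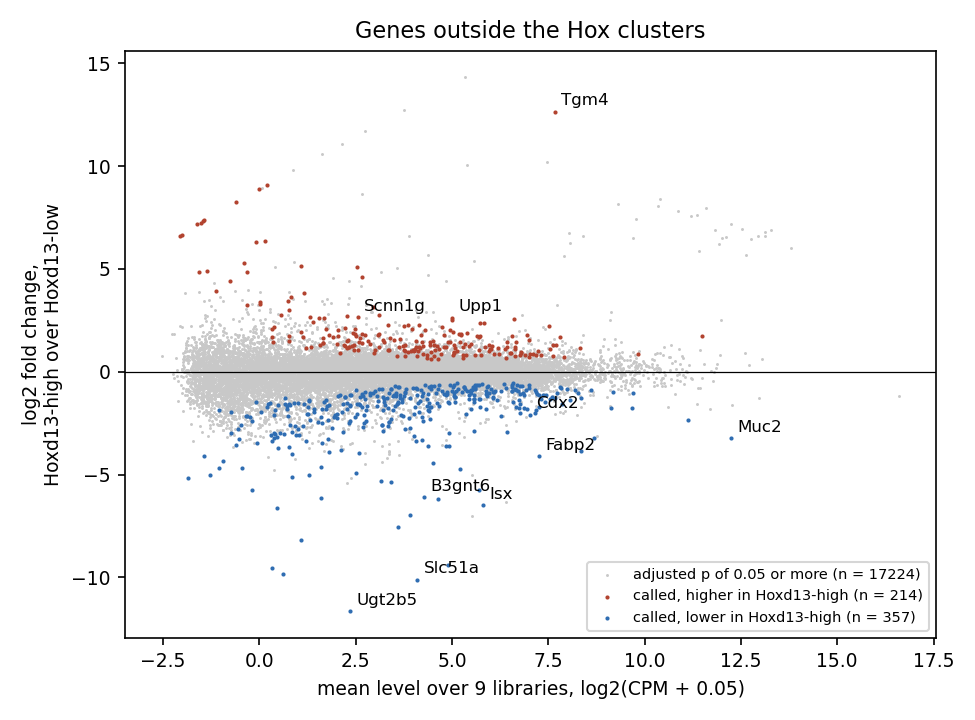
Log2 fold change of the Hoxd13-high over the Hoxd13-low libraries (vertical axis) against the mean level over 9 libraries on a log2 scale (horizontal axis), 1 point for each gene tested outside the Hox clusters. Red points are the 214 genes called higher, blue points the 357 called lower.

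The mucus of the colon is built on Muc2, the gel-forming mucin of goblet cells, and Muc2 was among the most abundant transcripts to differ. It measured 803, 1628, 919, 914 and 790 CPM in the Hoxd13-high libraries and 5144, 12860, 10785 and 9497 CPM in the Hoxd13-low ones. The lowest low library held more than 3 times the highest high one, and the log2 fold change was −3.24 (SE 0.33, edgeR adjusted p = 0.00162). Spdef, a transcription factor of goblet cell maturation, measured 22.0 to 39.0 CPM against 52.9 to 145 CPM and fell by 1.79 on the log2 scale (SE 0.26, adjusted p = 0.00637). Retnlb, which encodes a goblet cell protein with antibacterial action, measured 0.188, 0, 0, 0 and 0.266 CPM against 57.9, 157, 41.0 and 12.3 CPM (log2 −9.39, SE 1.44, adjusted p = 0.00999).

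Of the 20 goblet cell genes tested, 3 fell, 0 rose and 17 did not pass (15% called, against 3.21% of all genes tested). The list median was −0.61 on the log2 scale, and 5 of the 20 had a fitted change above 0. Ang4, an antimicrobial ribonuclease, measured 0.0471, 1.99, 0, 0.279 and 1.72 CPM against 233, 33.4, 2.34 and 138 CPM, and did not pass (adjusted p = 0.0744). In bulk RNA, fewer cells of a type and less RNA per cell cannot be told apart. Of the 11 tuft cell genes tested, 1 fell, Dclk1, a kinase used as a tuft cell marker, from 10.2 to 16.0 CPM on the low side to 5.92 to 9.05 CPM (log2 −0.86, SE 0.19, adjusted p = 0.0402). The share called was 9.09%, against 3.21% of all genes tested, and none of the 11 had a fitted change above 0. Trpm5, the taste-pathway channel of tuft cells, measured 1.25, 4.31, 1.80, 0.995 and 0.483 CPM against 5.73, 5.14, 3.42 and 8.62 CPM (adjusted p = 0.0910).

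Enzymes that build the sugar chains of mucins and other glycoproteins were called in both directions. B3gnt6, the core 3 synthase of mucin O-glycans, measured 0.495, 0.959, 0.651, 0.338 and 0.701 CPM in the Hoxd13-high libraries and 23.0, 68.4, 32.3 and 46.5 CPM in the low ones. It was 67.7-fold lower on the high side (log2 −6.09, SE 0.39, adjusted p = 0.000154), the smallest adjusted p of the comparison, and its call held in all 29 alternatives (adjusted p from 8.61e-55 to 0.0292). A family chosen by symbol after the values were seen, the transferases named B3gnt, B4galt, B4galnt, Gcnt, Galnt, Mgat, Fut, St3gal, St6gal, St8sia and close relatives, had 79 members tested, of which 4 rose and 10 fell (17.7% called, against 3.21% of all genes tested, with no test of that share).

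Gcnt3, which adds the branch of core 2 and core 4 chains, measured 70.5, 70.0, 59.4, 71.8 and 60.6 CPM against 108, 347, 350 and 175 CPM (log2 −1.88, SE 0.30, adjusted p = 0.00892). Mgat4c measured 24.4 to 37.3 CPM against 102 to 172 CPM (log2 −2.17, SE 0.18, adjusted p = 0.00114). A4gnt, which caps mucin chains with N-acetylglucosamine, measured 1.88 to 2.94 CPM against 4.87 to 12.1 CPM. In the other direction, B4galt1, a galactosyltransferase, measured 295, 241, 239, 269 and 285 CPM against 128, 104, 109 and 92.3 CPM and rose by 1.30 on the log2 scale (SE 0.15, adjusted p = 0.00292). The sialyltransferase gene St8sia5 measured 5.98, 13.5, 16.4, 10.5 and 8.38 CPM against 1.38, 0.0623, 0 and 0.398 CPM (log2 4.61, SE 1.03, adjusted p = 0.0445). Both sides of each of these genes stayed apart in every library.

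**Figure D4:**
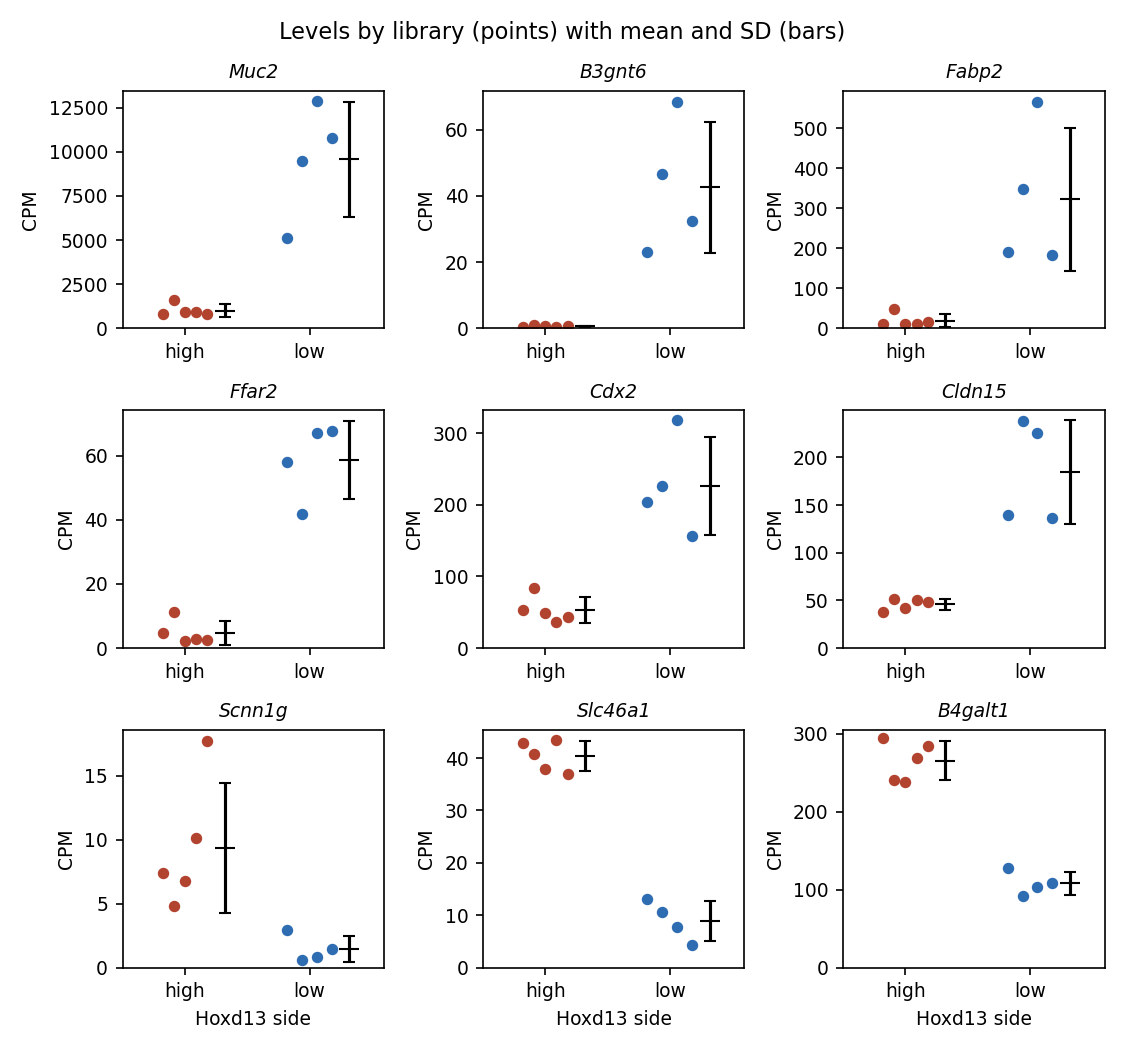
CPM of 9 called genes in each library (points; red, 5 Hoxd13-high; blue, 4 Hoxd13-low), with the mean and SD of each side as black bars, on linear axes that start at 0. The sides do not overlap in any panel: Muc2, B3gnt6, Fabp2, Ffar2, Cdx2 and Cldn15 are lower and Scnn1g, Slc46a1 and B4galt1 higher in the Hoxd13-high libraries.

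Cdx2, the caudal-type homeobox gene that maintains intestinal identity, was the 1 gene called among 32 tested regional transcription factors outside the Hox clusters. It measured 53.2, 83.4, 49.2, 36.4 and 44.0 CPM against 204, 318, 156 and 227 CPM, a log2 fold change of −2.09 (SE 0.26, adjusted p = 0.00336). The paralog Cdx1 did not pass (log2 0.49, adjusted p = 0.237). The share of that list called was 3.1%, near the 3.21% of all genes tested. Osr2, a zinc finger gene of the list for the proximal colon, measured 0.344, 9.77, 32.2 and 0.179 CPM on the low side, so that CT 3 and IM-HYA 2 fell below the Hoxd13-high libraries (0.548 to 1.45 CPM). It did not pass (log2 −3.49, adjusted p = 0.120), and with treatment group as a term its estimate was 0.31. Isx, an intestine-specific homeobox gene that in mice represses the carotene-cleaving gene Bco1, measured 0.801, 2.94, 1.55, 1.05 and 0.628 CPM against 35.6, 158, 248 and 55.7 CPM. Isx was 89.1-fold lower on the high side (log2 −6.49, SE 0.71, adjusted p = 0.00292). Six2, a homeobox gene known from kidney progenitors, was at 0 in 4 high libraries and 0.137 CPM in CT 2, against 0.516, 10.6, 0.422 and 6.83 CPM.

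Genes of retinoid handling were called in both directions: 2 of 18 tested rose and 2 fell (22.2% called, against 3.21% of all genes tested). Lrat, which stores retinol as esters, measured 0.411 to 0.830 CPM against 1.72 to 5.12 CPM (log2 −2.63, SE 0.36, adjusted p = 0.00516). Aldh1a1, which makes retinoic acid, measured 51.0 to 82.5 CPM against 75.7, 297, 479 and 135 CPM (log2 −2.01, SE 0.43, adjusted p = 0.0363), and CT 3 overlapped the high side. Rbp2, a cellular retinol-binding protein, rose (45.2 to 61.4 against 17.0 to 28.8 CPM, log2 1.19, SE 0.20, adjusted p = 0.0111). Rdh16, a retinol dehydrogenase, rose as well (17.8 to 34.7 against 2.11 to 11.2 CPM).

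The list for the proximal colon apart from Hox genes had 15 members tested, of which 3 fell, 0 rose and 12 did not pass. Its share called was 20%, against 3.21% of all genes tested. Its median log2 fold change was −1.16, and 4 members had a fitted change above 0. These included Gsdmc4 (log2 1.76, adjusted p = 0.140), Osr1 (log2 1.19, adjusted p = 0.170) and Tgm3 (log2 2.51, adjusted p = 0.209), which did not pass. Slc51a, the α subunit of the basolateral bile acid exporter, had no count in CT 1, CT 2, IM 1 and IM-HYA 1 and 0.145 CPM in IM-HYA 3, against 0.630, 32.2, 119 and 1.71 CPM on the low side (log2 −10.11, SE 1.88, adjusted p = 0.0150). Almost all of its signal came from IM 2 and IM 3. Fabp2, the intestinal fatty acid binding protein, measured 10.9, 47.2, 11.0, 9.93 and 15.1 CPM against 192, 566, 183 and 347 CPM (log2 −4.10, SE 0.56, adjusted p = 0.00626). Cyp2c55, a cytochrome P450 that oxidizes fatty acids, measured 220 to 407 CPM against 418 to 617 CPM (log2 −0.90, SE 0.21, adjusted p = 0.0452). Slc9a3, the sodium-proton exchanger of the brush border, measured 9.12, 39.5, 47.0, 19.5 and 50.6 CPM against 96.5, 116, 78.9 and 150 CPM and did not pass (adjusted p = 0.0550).

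Of the 12 tested genes of the list for the distal colon, 1 rose, 0 fell and 11 did not pass, with a median of 0.75. The share called was 8.33%, against 3.21% of all genes tested. Scnn1g, the γ subunit of the epithelial sodium channel, measured 7.37, 4.79, 6.78, 10.1 and 17.7 CPM against 2.92, 0.872, 1.5 and 0.637 CPM (log2 2.67, SE 0.51, adjusted p = 0.0213). The channel's β subunit gene Scnn1b did not pass (log2 0.31, adjusted p = 0.628), and neither did the α subunit gene Scnn1a (log2 0.45, adjusted p = 0.399). Fxyd4, a regulator of the sodium pump known to respond to corticosteroids, measured 92.9, 52.4, 76.7, 82.0 and 112 CPM against 7.79, 0, 0 and 0.378 CPM. Atp12a, the colonic proton-potassium pump, measured 312, 204, 435, 377 and 418 CPM against 93.2, 4.42, 0.656 and 50.9 CPM. Both pump genes were higher in every Hoxd13-high library, yet neither passed (adjusted p = 0.115 for Fxyd4 and 0.129 for Atp12a), with CT 3 far above IM 2 and IM 3 in each. In the other direction Ly6g6c (log2 −1.30, adjusted p = 0.0731) and Aqp4, a water channel (log2 −1.17, adjusted p = 0.321), did not pass either. Cldn8 and Slc37a2 had CT 3 within or at the edge of the high range: Slc37a2 measured 168, 337, 300, 212 and 249 CPM against 168, 5.48, 4.45 and 45.5 CPM.

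Over the 37 salt and water transport genes tested, 2 rose, 1 fell and 34 did not pass (8.11% called, against 3.21% of all genes tested). Slc4a4, a sodium bicarbonate cotransporter, rose. It measured 55.0, 16.1, 53.7, 65.8 and 84.9 CPM against 17.9, 12.0, 15.4 and 18.6 CPM, and CT 2 lay inside the low range (log2 1.79, SE 0.37, adjusted p = 0.0306). Slc12a2, the sodium-potassium-chloride cotransporter of secreting crypt cells, fell with a slight overlap (145 to 262 against 261 to 410 CPM, log2 −0.83, SE 0.20, adjusted p = 0.0495). Best2, a bicarbonate channel of colonic goblet cells, measured 70.9 to 97.8 CPM against 25.8 to 68.3 CPM (adjusted p = 0.0750). Aqp8, a water channel of surface colonocytes, measured 590 to 767 CPM against 450, 357, 12.0 and 493 CPM and did not pass (adjusted p = 0.333).

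Guanylin and uroguanylin are peptides made by the epithelium, and their receptor raises cyclic GMP and so limits sodium uptake. Both ligand genes are in the colonocyte list, Prkg2 was named for its size, and the receptor gene was added after its values were seen. The 4 genes are given one by one, with no test of them as a set. Guca2a (guanylin) measured 354, 563, 333, 295 and 424 CPM against 1218, 2013, 537 and 1555 CPM (log2 −1.76, SE 0.33, adjusted p = 0.0213). CT 2, the highest of the high side, just overlapped IM 3. Guca2b (uroguanylin) measured 9.16, 18.7, 5.45, 7.16 and 6.88 CPM against 19.1, 37.6, 28.2 and 22.9 CPM (log2 −1.51, SE 0.34, adjusted p = 0.0412). The receptor gene Gucy2c measured 175, 161, 175, 173 and 174 CPM against 262, 306, 369 and 222 CPM (log2 −0.75, SE 0.16, adjusted p = 0.0337). The step was smallest for the receptor and most even over its libraries. Prkg2, the cyclic GMP dependent kinase of the epithelium, measured 0.895, 0.274, 0.718, 0.378 and 0.0966 CPM against 8.71, 21.0, 38.8 and 9 CPM (log2 −5.33, SE 0.68, adjusted p = 0.00443).

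Among the 20 colonocyte genes tested, 1 rose and 5 fell (30% called, against 3.21% of all genes tested). The list median was 0.17 on the log2 scale, and 11 of the 20 had a fitted change above 0. Tmigd1, an adhesion molecule of the brush border, measured 1.08 to 4.59 CPM against 21.0 to 73.2 CPM (log2 −4.45, SE 0.51, adjusted p = 0.00292). Emp1, a membrane protein, fell too (49.5 to 99.8 against 138 to 449 CPM). Ms4a12 rose: it measured 2.4, 2.67, 7.09, 6.93 and 5.65 CPM against 2.06, 0.747, 0.797 and 1.12 CPM (log2 2.07, SE 0.44, adjusted p = 0.0332), and CT 3 lay just under CT 1.

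Among the fatty acid receptor genes tested, Ffar2 and Ffar4 fell, and Ffar3 did not pass (log2 −1.61, adjusted p = 0.0813). Ffar2, a receptor for acetate and propionate, measured 4.83, 11.2, 2.33, 2.85 and 2.68 CPM against 58.0, 67.1, 67.6 and 41.7 CPM, a 12.2-fold difference (log2 −3.62, SE 0.45, adjusted p = 0.00425). Ffar4, a receptor for long-chain fatty acids, measured 12.5 to 19.5 CPM against 29.3 to 67.3 CPM (log2 −1.48, SE 0.23, adjusted p = 0.00875). Slc27a4, a long-chain fatty acid transport protein, fell as well (46.1 to 66.1 against 84.0 to 267 CPM). With Fabp2 these made 4 genes that fell, and 0 that rose, of 17 tested in the list of fatty acid transport and sensing. That is 23.5% called, against 3.21% of all genes tested. The list median was −0.19 on the log2 scale, and 8 of the 17 had a fitted change above 0.

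Both subunits of a sterol exporter rose. Abcg5, a subunit of the exporter that returns sterols to the lumen, measured 13.1, 5.75, 10.5, 22.0 and 17.6 CPM against 2.69, 1.84, 2.48 and 1.08 CPM (log2 2.77, SE 0.40, adjusted p = 0.00637). Its partner Abcg8 measured 2.85 to 6.07 CPM against 0.418 to 1.15 CPM (log2 2.43, SE 0.38, adjusted p = 0.00854). The partner genes lie head to head on chromosome 17 and both stayed apart between the sides. With Slc51a, the bile acid and sterol list had 2 genes that rose and 1 that fell of 18 tested. That is 16.7% called, against 3.21% of all genes tested. Npc1l1, the importer of luminal sterols, did not pass (log2 −3.66, adjusted p = 0.0791), nor did the cholesterol exporter gene Abca1 (log2 −0.65, adjusted p = 0.336). Malrd1, which in mice regulates Fgf15 and bile acid levels, measured 0.118, 0, 0, 0 and 0 CPM against 1.49, 2.37, 6.19 and 1.67 CPM. Cyp51, a step of cholesterol synthesis chosen after its values were seen, fell (92.3 to 145 against 220 to 321 CPM).

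Transporters of iron, folate and amino acids, chosen from the solute carriers after their values were seen, were also called. Slc46a1, the proton-coupled folate transporter, measured 42.9, 40.8, 37.9, 43.4 and 37.0 CPM against 13.2, 7.81, 4.36 and 10.6 CPM (log2 2.17, SE 0.27, adjusted p = 0.00339). Slc40a1, the iron exporter ferroportin, measured 120 to 248 CPM against 31.1 to 92.3 CPM (log2 1.77, SE 0.33, adjusted p = 0.0210). Slc36a1, a proton-coupled amino acid transporter, measured 119 to 192 CPM against 16.1 to 42.7 CPM (log2 2.54, SE 0.29, adjusted p = 0.00272). Slc3a1, the heavy subunit of the cystine transporter, was lower on the high side (0.137 to 0.381 against 2.23 to 8.65 CPM), and so was the sulfate transporter Slc13a1 (0 to 0.205 against 2.75 to 9.61 CPM). Over all 284 solute carrier genes tested, 6 rose and 17 fell (8.1% called, against the same 3.21%).

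Drug-metabolizing enzymes were called in both directions: 4 of 58 tested rose and 8 fell (20.7% called, against 3.21% of all genes tested). The list median was 0.17 on the log2 scale, and 32 of the 58 had a fitted change above 0. At an unadjusted edgeR p under 0.05, 14 were higher and 12 lower. Ugt2b5, a glucuronosyltransferase, had no count in any Hoxd13-high library and measured 2.01, 16.3, 17.6 and 9.78 CPM in the low ones, at least 758-fold lower with a floor of 3 counts summed over the 5 high libraries (adjusted p = 0.00532). Cyp2c65 measured 2.73 to 4.13 CPM against 10.3 to 79.5 CPM (log2 −3.63, SE 0.49, adjusted p = 0.00532). Ugt1a1 measured 3.39 to 12.3 CPM against 12.4 to 47.1 CPM, with CT 3 just above IM-HYA 3. Mgst1, a microsomal glutathione transferase, rose (109 to 154 against 44.4 to 76.4 CPM, log2 1.10, SE 0.19, adjusted p = 0.0129). Members of the Cyp2c, Ces, Ugt1a and Apol families have close copies or shared exons, so the division of reads among them is uncertain. Apol10a, an apolipoprotein L gene, measured 1.93, 5.20, 1.17, 0.856 and 1.40 CPM against 59.7, 150, 117 and 128 CPM.

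Of 14 claudins tested, the tight junction genes, 1 rose and 1 fell (14.3% called, against 3.21% of all genes tested). Cldn15, which forms a pore for sodium, measured 37.9, 51.8, 41.6, 50 and 48.9 CPM against 140, 226, 136 and 238 CPM (log2 −2.01, SE 0.20, adjusted p = 0.00162). Cldn2, a further cation pore, measured 80.7, 77.2, 115, 95.0 and 99.1 CPM against 55.5, 46.3, 44.0 and 57.4 CPM (log2 0.88, SE 0.16, adjusted p = 0.0195). The pair of pores thus differed in opposite directions, Cldn15 by 4.02-fold and Cldn2 by 1.84-fold.

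Of 22 enteroendocrine genes tested, hormones and others, 4 fell and 0 rose (18.2% called, against 3.21% of all genes tested). The list median was −0.13 on the log2 scale, and 9 of the 22 had a fitted change above 0. Cck, cholecystokinin, measured 0.966, 0.342, 0.583, 0.876 and 0.628 CPM against 5.79, 8.50, 4.27 and 8.34 CPM (log2 −3.29, SE 0.34, adjusted p = 0.00169). Sct, secretin, measured 4.43, 6.78, 1.71, 2.53 and 3.24 CPM against 11.4, 35.4, 94.4 and 8.74 CPM (log2 −3.33, SE 0.69, adjusted p = 0.0360). The prohormone convertase gene Pcsk1 and the granule gene Chgb were the others, with smaller steps of −1.09 and −0.78 on the log2 scale. Pyy and Insl5, hormones of the list for the distal colon, did not pass (log2 0.35 and 0.49, adjusted p = 0.560 and 0.681).

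In the lists of signalling and stroma, most genes did not pass. Among 41 Wnt, BMP and R-spondin genes tested, Bmp2 and Wnt9a rose and Shh fell (7.32% called, against 3.21% of all genes tested). Bmp2 measured 69.5, 40.4, 52.4, 73.7 and 74.5 CPM against 36.2, 19.3, 11.2 and 29.9 CPM (log2 1.36, SE 0.32, adjusted p = 0.0448). Of 20 fibroblast genes tested, Gsn, Dcn and Lum rose and Sox6 fell (20% called, against 3.21% of all genes tested). The list median was 0.59 on the log2 scale, and 15 of the 20 had a fitted change above 0. At an unadjusted edgeR p under 0.05, 10 were higher and 1 lower. Gsn, the actin-severing protein gelsolin, measured 1338, 1086, 1389, 1032 and 870 CPM against 630, 601, 610 and 637 CPM (log2 0.88, SE 0.18, adjusted p = 0.0289). Sox6, a transcription factor of subepithelial fibroblasts, measured 5.97 to 9.45 CPM against 10.6 to 26.9 CPM (log2 −1.19, SE 0.26, adjusted p = 0.0360). The pericyte genes Rgs5 and Cspg4 fell, 2 of 8 tested (25% called, against 3.21% of all genes tested). The pericyte list median was −0.29 on the log2 scale, and 2 of the 8 had a fitted change above 0. Kit, the receptor of interstitial cells of Cajal and of some crypt cells, measured 33.0, 27.6, 32.9, 32.1 and 29.6 CPM against 71.8, 77.3, 52.2 and 70.1 CPM (log2 −1.13, SE 0.15, adjusted p = 0.00422). It was the 1 gene called of 6 tested in the list for those interstitial cells (16.7% called, against 3.21% of all genes tested). Of the 6, 4 had a fitted change above 0, with a median of 0.94. Ano1, the chloride channel of interstitial cells of Cajal, did not pass (log2 1.39, adjusted p = 0.0855). The deep crypt secretory list had 3 genes that fell and 0 that rose of 8 tested (37.5% called). Its median was −0.89 on the log2 scale, and 3 of the 8 had a fitted change above 0. In the lists of the cell cycle, smooth muscle, enteric neurons, enteric glia, endothelium, the interferon response, the circadian clock and nuclear oxidative phosphorylation, 0 genes were called. At an unadjusted p under 0.05 those of the cell cycle counted 2 up and 4 down of 28, and those of smooth muscle 1 up and 0 down of 20.

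Of 26 collagen genes tested 3 fell and 0 rose (11.5% called, against 3.21% of all genes tested). However, 20 had a fitted change above 0, with a list median of 0.36 on the log2 scale. At an unadjusted p under 0.05, 9 were higher and 3 lower. Col3a1, a fibrillar collagen that did not pass, had a log2 fold change of 1.45 (adjusted p = 0.0750). Col27a1, a fibrillar collagen, measured 11.7 to 16.0 CPM against 19.1 to 61.9 CPM (log2 −1.51, SE 0.29, adjusted p = 0.0219), and Col6a4 measured 5.77 to 9.65 CPM against 14.4 to 23.1 CPM. Col8a1 fell with an overlap, since IM 3 at 9.94 CPM lay below all 5 high libraries. Among 12 tested genes of the small intestine and cecum list, Alpi, an intestinal alkaline phosphatase, fell with Fabp2 (0 to 0.292 against 1.55 to 9.81 CPM, log2 −5.04, SE 0.93, adjusted p = 0.0201). In that list 2 genes fell and 2 rose, Rbp2 among the latter (33.3% called, against 3.21% of all genes tested). Of 10 skeletal muscle genes tested, Acta1 and Tnnc2 rose and 0 fell (20% called, against 3.21% of all genes tested). The list median was 0.47 on the log2 scale, and 6 of the 10 had a fitted change above 0. Acta1, skeletal actin, measured 6.27 to 11.2 CPM against 2.12 to 4.48 CPM. Tnnc2 was low in every library, at 0.274 to 2.52 CPM against 0 to 0.141 CPM. Lyz2, lysozyme of macrophages, measured 82.6 to 164 CPM against 28.8 to 64.8 CPM (log2 1.20, SE 0.27, adjusted p = 0.0382). In the macrophage and dendritic cell list, 1 of 18 genes tested rose and 0 fell (5.56% called, against 3.21% of all genes tested). Of the 18, 12 had a fitted change above 0, with a list median of 0.27 on the log2 scale. At an unadjusted edgeR p under 0.05, 5 were higher and 2 lower.

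Plasma cell genes had none called of 15 tested, with a median of −1.26 and 8 at an unadjusted p under 0.05, all lower. Igha, the constant region of immunoglobulin A, measured 877, 3575, 701, 923 and 831 CPM against 5826, 3946, 3547 and 3292 CPM. CT 2 lay with the Hoxd13-low libraries (adjusted p = 0.0832). H2-T3, a nonclassical MHC class I gene of the intestinal epithelium, was the 1 gene called of 19 in antigen presentation. That is 5.26% called, against 3.21% of all genes tested. H2-T3 measured 0.236, 1.23, 0.494, 0.338 and 0.604 CPM against 9.91, 28.1, 38.4 and 16.4 CPM (log2 −5.35, SE 0.54, adjusted p = 0.00169).

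Among the genes with the largest called rise, Tgm4, a prostate transglutaminase, varied widely within the high side. Tgm4 measured 411, 0.616, 51.4, 43.5 and 1336 CPM against 0.286, 0, 0 and 0 CPM (adjusted p = 0.0358). Like Pbsn it was highest in IM-HYA 3 and CT 1, and it lay near 0 in CT 2. Upp1, uridine phosphorylase, was even over the high side at 41.7, 42.9, 49.5, 66.9 and 53.3 CPM against 10.5, 7.41, 4.03 and 10.9 CPM (log2 2.63, SE 0.29, adjusted p = 0.00220). Cps1, the first enzyme of the urea cycle, measured 7.28, 6.64, 7.47, 8.26 and 8.79 CPM against 2.18, 2.05, 0.328 and 0.199 CPM (log2 2.70, SE 0.63, adjusted p = 0.0458). The mast cell chymase gene Cma1 measured 1.16 to 4.48 CPM against 0 to 0.378 CPM. In the mast cell and granulocyte list, 1 of 7 genes tested rose and 1 fell (28.6% called, against 3.21% of all genes tested). Of the 7, 3 had a fitted change above 0, and the list median was −0.84 on the log2 scale. Prom2, Mettl7a3, Svopl, Bmpr1b, Apobec2, Lix1 and Ms4a10 were further genes of the 15, with log2 fold changes of 2.61 to 5.13. Of these, Prom2 varied on the high side as well, at 0.942, 11.6, 3.39, 0.199 and 2.15 CPM against 0, 0.125, 0.187 and 0.0796 CPM.

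Beside Ugt2b5, Slc51a, Retnlb, Isx and B3gnt6, Abca12, a lipid transporter, had no count in the Hoxd13-high libraries and 0.516, 3.67, 7.83 and 1.27 CPM in the low ones, at least 190-fold lower. Sptssb, a small subunit of serine palmitoyltransferase that starts sphingolipid synthesis, measured 0, 0.822, 0.0898, 0 and 0 CPM against 13.1, 42.4, 25.8 and 27.0 CPM (log2 −7.57, SE 1.61, adjusted p = 0.0411). Kcnh3, a voltage-gated potassium channel gene best known from brain, measured 0.424, 1.85, 0.494, 0.279 and 0.821 CPM against 30.2, 68.7, 77.1 and 42.1 CPM (log2 −6.17, SE 0.58, adjusted p = 0.00162). Prap1, a proline-rich protein of the epithelium, measured 0.135 to 0.314 CPM against 2.58, 32.5, 95.3 and 3.11 CPM. IM 2 and IM 3 carried most of its signal, as for Slc51a, whereas Kcnh3, Sptssb and B3gnt6 were high in all 4 low libraries.

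**Figure D5:**
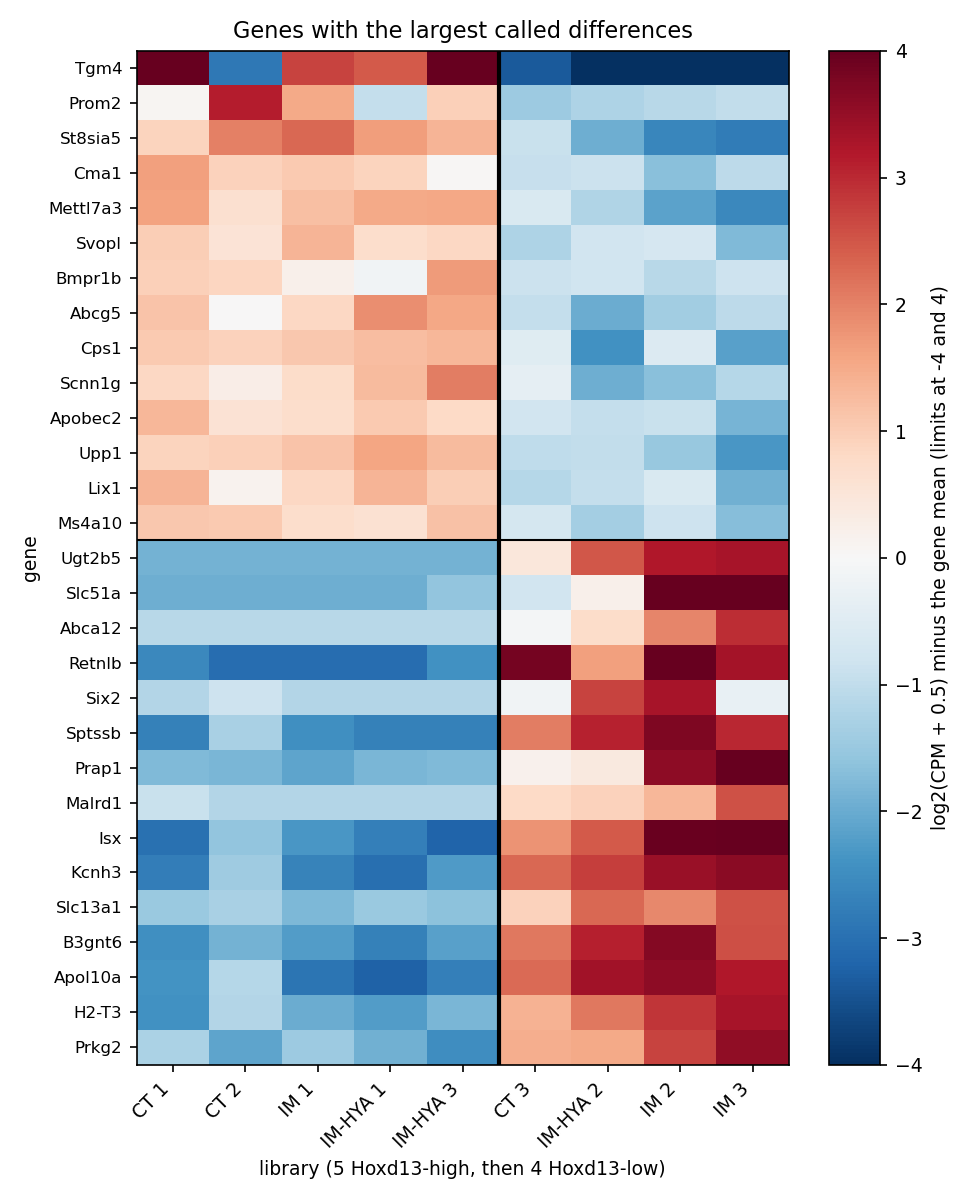
Genes with the largest called rise (top, 14 of 15 shown) and the 15 with the largest called fall (bottom), as log2(CPM + 0.5) minus the gene's mean over 9 libraries, with colours limited to −4 and 4. Rows are genes, columns are libraries, and the black vertical line divides the 5 Hoxd13-high libraries from the 4 Hoxd13-low ones. Tgm4 varies within the high side (0.616 to 1336 CPM), whereas B3gnt6 is even (0.338 to 0.959 CPM).

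Promoter sequences were read from RefSeq on GRCm38.p6 as 250 bases before to 50 after each gene's start, and 427 called genes had at least 1. They were searched on both strands for the words CCAATAAA and CTCGTAAA, which resemble the sequences bound by HOX13 proteins, and for TTTATG, which resembles those bound by CDX proteins. CCAATAAA was found in 3 of 203 promoters of genes called higher (1.48%), 0 of 355 of genes called lower and 1.12% of all 32851 promoters. CTCGTAAA was found in 1 promoter of a gene called higher (0.493%), 0 of genes called lower and 0.131% of all. TTTATG was in 10.8%, 10.1% and 11.9%. The 4 promoters of called genes that hold a HOX13-like word are shown with the word in capitals, to show where it lies, and the Scnn1g and Muc2 promoters are shown as those of leading genes without one. These 4 genes were named after their values were seen, and all were called higher. For genes called higher, the share with CCAATAAA is near that over all promoters, and the share with CTCGTAAA rests on 1 promoter. The word CAAAGTCCA, which resembles those bound by HNF4 proteins, was in 2 promoters of genes called higher (0.985%) and 5 of genes called lower (1.41%). It was in 0.475% of all promoters, and the shares were not tested. Alpi, Cyp2c65, H2-T3 and Slc3a1 were among the genes called lower that hold it.
Lrrc19 chr4:94650095-94650394, minus strand: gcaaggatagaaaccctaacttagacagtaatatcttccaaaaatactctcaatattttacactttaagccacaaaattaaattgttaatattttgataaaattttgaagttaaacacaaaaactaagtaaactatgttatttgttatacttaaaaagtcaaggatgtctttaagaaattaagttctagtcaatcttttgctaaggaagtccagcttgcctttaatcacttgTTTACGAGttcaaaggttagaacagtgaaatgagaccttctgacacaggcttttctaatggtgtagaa
Nat8f2 chr6:85869088-85869387, minus strand: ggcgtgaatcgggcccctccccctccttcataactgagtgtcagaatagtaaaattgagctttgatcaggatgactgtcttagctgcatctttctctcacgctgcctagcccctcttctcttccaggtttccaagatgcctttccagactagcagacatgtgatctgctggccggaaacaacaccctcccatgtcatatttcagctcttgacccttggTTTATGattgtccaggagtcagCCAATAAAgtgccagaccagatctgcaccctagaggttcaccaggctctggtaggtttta
Eno3 chr11:70656926-70657225, plus strand: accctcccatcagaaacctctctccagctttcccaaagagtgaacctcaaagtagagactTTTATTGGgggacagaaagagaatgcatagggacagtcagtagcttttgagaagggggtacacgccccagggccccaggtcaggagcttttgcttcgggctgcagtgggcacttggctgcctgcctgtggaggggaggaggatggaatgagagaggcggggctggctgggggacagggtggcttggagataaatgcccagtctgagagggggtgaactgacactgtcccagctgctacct
2010106E10Rik chrX:112495024-112495323, plus strand: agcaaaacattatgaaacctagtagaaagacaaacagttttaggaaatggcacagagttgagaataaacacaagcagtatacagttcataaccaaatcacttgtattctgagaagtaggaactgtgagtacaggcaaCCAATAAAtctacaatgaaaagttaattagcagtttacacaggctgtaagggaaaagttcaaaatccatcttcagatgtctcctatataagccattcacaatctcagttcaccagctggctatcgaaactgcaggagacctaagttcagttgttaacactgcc
Scnn1g chr7:121734229-121734528, plus strand: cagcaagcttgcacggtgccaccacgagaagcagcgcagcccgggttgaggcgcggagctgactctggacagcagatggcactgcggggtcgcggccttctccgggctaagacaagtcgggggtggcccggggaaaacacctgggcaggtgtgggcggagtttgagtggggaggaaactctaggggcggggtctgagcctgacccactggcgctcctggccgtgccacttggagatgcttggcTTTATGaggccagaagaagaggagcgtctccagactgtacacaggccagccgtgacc
Muc2 chr7:141690090-141690389, plus strand: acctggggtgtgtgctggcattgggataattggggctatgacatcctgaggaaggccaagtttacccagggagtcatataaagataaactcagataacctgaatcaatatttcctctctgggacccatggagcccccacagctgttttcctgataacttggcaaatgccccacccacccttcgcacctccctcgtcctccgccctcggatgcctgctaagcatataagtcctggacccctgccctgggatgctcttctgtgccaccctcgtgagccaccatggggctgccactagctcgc

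In Lrrc19 the word lies on the opposite strand and begins 18 bases before the start. Lrrc19, a leucine-rich repeat membrane protein gene, measured 32.7, 19.3, 27.0, 31.3 and 38.4 CPM against 12.2, 5.98, 2.72 and 8.08 CPM (log2 2.04, SE 0.37, adjusted p = 0.0185). In Nat8f2, an N-acetyltransferase family gene, the word CCAATAAA begins 10 bases before the start, with TTTATG beginning 32 bases before it. Nat8f2 measured 0.966 to 2.37 CPM against 0.187 to 0.750 CPM (log2 2.06, SE 0.48, adjusted p = 0.0452). Eno3, the muscle form of enolase, holds it 190 bases before the start and measured 267, 313, 237, 288 and 293 CPM against 113, 37.2, 19.7 and 66.3 CPM (log2 2.24, SE 0.41, adjusted p = 0.0195). The gene 2010106E10Rik holds it 113 bases before the start and measured 3.37, 0.548, 3.07, 2.53 and 5.10 CPM against 0.115, 0.311, 0 and 0.458 CPM. A match is a description of the letters and shows no binding, and the Scnn1g promoter holds the CDX-like word alone.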

How the data were processed

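Colon total RNA was sequenced in 9 libraries. The build was GRCm38 (mm10), and StringTie 2.1.3b, HISAT2 2.1.0, Trimmomatic and bcl2fastq 2.20.0 are named, per the submitters' processing notes. Read filters, strandedness, counting setting and annotation release are not given in the sources used here. Overlapping genes may therefore share reads. The authors deposited 1 table of 45777 genes with a whole-number read count, an FPKM and a TPM for each library. The deposited read counts were not normalized and entered the main tests. The deposited FPKM values, scaled by the authors to gene length and library total, entered alternatives only, and the deposited TPM values entered no test. All per-sample columns were mapped to libraries (0 unmapped).

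The sides, members and gene lists were chosen with earlier results of these data known. Of the alternatives, 4 were chosen after seeing the data (the 18S share as a term, library sizes without pancreatic and 18S counts, and the pairs CT 1 with IM-HYA 3 and CT 3 with IM-HYA 2 left out). Hoxd13 counts were divided by the library total, with a CPM of 10 as the threshold. Main tests came from edgeR 4.0.16 (quasi-likelihood, R 4.3.3, TMM scaling, all 9 libraries, side as the only term, 7 residual degrees of freedom) after filterByExpr (minimum count 10, minimum total 15). This left 17840 genes, 17795 outside the Hox clusters. The common biological coefficient of variation was 0.428 and log2 fold changes had a median SE of 0.27. The test was tried on simulated counts. Hox genes and genes inside Hox clusters stayed in the fit and are not counted. A fold against libraries with no count used a floor of 3 counts, which covers counting error only. Total counts per library (19638401 to 42917198) set the depth. Pairs of libraries within a treatment group were checked for repeats, and their counts had a chi-square of at least 39.8 per gene.

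Named genes were up to 15 per direction with the largest called change, sides that did not overlap and a mean of at least 2 CPM on the higher side, plus up to 6 genes of each list by p and the region, salt transport and transcription factor lists. Alternatives were other scalings and filters, DESeq2 1.42.0, limma 3.58.1 on voom and FPKM values, treatment group or a replicate block as a term, continuous Hox levels, and libraries left out. Same-numbered libraries did not deviate together in every pair, so the numbers were not taken as pairs. Of the gene identifiers, 45675 matched RefSeq of the same build. Plots used matplotlib 3.10.9 (Python 3.11.15). A few genes that meet the rule are not reported here.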

Additional observations from a re-analysis of the deposited data

Results flagged for a closer look

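Within each side, a library whose gap to its nearest neighbour was large against the side's whole range was marked (Dixon's 95% value for 5 or 4 libraries). Of 348 sets checked, 36 were marked, where chance marks about 1 in 20. The sides are groups made from a measured level, not the study's groups. Gene values here are log2(CPM + 0.5) and list values mean log2 CPM.

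CT 2 stood apart most often on the Hoxd13-high side. It was highest for pancreas genes (32.8% of counts against 0.255 to 0.397%), Muc2 (10.7 against 9.63 to 9.84), Igha (11.8 against 9.45 to 9.85), Fabp2 (5.58 against 3.38 to 3.96), A4gnt (1.78), Sptssb (0.402) and Six2 (−0.651, with no count elsewhere). It was lowest for the posterior Hox list (3.31 against 4.54 to 4.73), Slc4a4 (4.05 against 5.76 to 6.42) and Gucy2c (7.34).

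IM 3 stood apart most often on the Hoxd13-low side. It was highest for T and NK cell genes (3.29 against −0.857 to −0.572), antigen presentation (7.15 against 5.63 to 5.84) and pancreas genes (0.575% of counts against 0.121 to 0.198%). It was lowest for Aqp8 (3.64 against 8.48 to 8.95), Col8a1 (3.38), Apobec2 (−0.643), the proximal colon list (4.16), Wnt, BMP and R-spondin genes (1.84), enteroendocrine genes (3.37) and crypt stem cell genes (3.97).

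CT 1 was lowest for Ces1g (1.28), B4galnt2 (5.89) and xenobiotic metabolism (4.70), and highest for Cd44 (6.05), skeletal muscle genes (1.39) and Malrd1 (−0.695, with no count in the other high libraries). IM 1 was highest for collagens (5.09), T and NK cell genes (0.664) and the anterior and central Hox list (1.14), and lowest for Prap1 (−0.656). IM-HYA 1 was lowest for the cell cycle list (4.04), and IM-HYA 3 held the only Slc51a counts of the high side (−0.633). On the low side CT 3 held the only Pbsn (0.768) and Tgm4 (−0.346) counts and was lowest for B4galnt2 (6.98), and IM 2 was lowest for Dclk1 (3.42).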

How the results depend on the processing

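Over 29 alternatives to the comparison of the sides the number of calls moved from 571. The genes of the 571 that were tested kept their direction, which for the 529 that do not overlap is fixed by the choice of genes where libraries are left out. The number was 47 with the 18S share as a term, 168 with treatment group as a term, 1917 by DESeq2, 4685 by limma-voom with quality weights, 4276 with Hoxd13 and 4411 with 6 posterior Hox genes as a continuous term. By limma on log2(FPKM + 0.1) it was 170, on log2(FPKM + 1) 250 and on the latter with no filter 46. Leaving out 1 library gave 154 to 1946. Leaving out CT 1 with IM-HYA 3 gave 1, CT 3 with IM-HYA 2 gave 2609 and CT 2 with IM 3 gave 1142. The cause was not tested. Other scalings and count filters gave 497 to 592, and Hoxd13 at 50 or more against under 10 gave 648. That last setting leaves out CT 2 alone, so it is the same fit as that without CT 2, counted again among the 29.

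The replicate number as a block left 4 calls for the sides, 0 for IM against CT, 0 for IM-HYA against IM and 0 for IM-HYA against CT. CT 1, IM 1 and IM-HYA 1 were all Hoxd13-high, so number 1 holds no contrast of the sides, and number and side are partly confounded. Same-numbered libraries correlated in some pairs only, from r = −0.28 (CT 3 with IM-HYA 3) to 0.38 (IM 2 with IM-HYA 2). The block result is therefore not read as pairing.

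For IM against CT, DESeq2 called 27 genes, limma 14 with log2(FPKM + 0.1), 53 with log2(FPKM + 1) and 0 without a filter, no count filter 7, protein-coding genes alone 0, and leaving out 1 library 0 to 2. For IM-HYA against IM the counts were 22 by DESeq2, 22 with log2(FPKM + 1), 6 with no count filter and 0 to 1 with 1 library left out. For IM-HYA against CT they were 83 by DESeq2, 64 and 189 on the FPKM scales and 0 without a filter, 2168 by limma-voom, 0 with the 18S term, 0 among protein-coding genes and 0 to 2 with 1 library left out. Without CT 2 and IM 3 the counts were 2, 1 and 1, and without either other pair 0, 0 and 0. Of 124 named genes only Osr2 reversed, to 0.308 with treatment group as a term.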
